A study of Rattus norvegicus with 6 samples.

Results

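The genes described here encode the proteins of the cell's ribosomes: those of the cytosolic ribosome (symbols starting with Rpl or Rps, with Rplp0, Rplp2 and Rpsa) and those of the mitochondrial ribosome (Mrpl and Mrps). They were chosen by symbol alone among the protein-coding rows of the count table, which gave 158 rows with 151 symbols out of 32883 genes. The cytosolic set had 83 rows, 53 of the large and 30 of the small subunit, and the mitochondrial set had 75 rows, 45 of the large and 30 of the small subunit. The data are RNA-seq libraries of the vestibular sensory epithelium of adult male Long-Evans rats. The treated group, IDPN-4wk, comprised 3 rats whose drinking water held 20 mM of the ototoxic nitrile 3,3'-iminodipropionitrile (IDPN), known to damage hair cells (HCs), over 4 weeks. Plain water was given to 3 controls. Each library held the utricles and cristae of a single animal, so p-values measure the spread between animals.

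A ribosome consists of ribosomal RNA and one copy of most of its proteins in a large and a small subunit, and it translates mRNA into protein. Cytosolic ribosomes translate the mRNA of nuclear genes, and mitochondrial ribosomes translate the few mRNAs of the mitochondrial genome, which encode core subunits of the respiratory chain. Genes of both kinds of ribosomal protein lie in the nucleus. The mRNAs of cytosolic ribosomal proteins are known to start with a run of pyrimidines, the 5′ terminal oligopyrimidine (TOP) tract, through which the mTOR pathway controls their translation together.

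The promoters of the members on which the results turn are shown first, with the most abundant cytosolic member, Rplp0, and a cytosolic member among those with the lowest log2-Fold change, Rpl10, since the start of transcription is where the sets are known to differ. The sequences are from RefSeq (build GRCr8, not the Rnor6.0 build of the counts) and hold the 15 bases before and the 15 bases from the annotated start, 5′ to 3′. In the cytosolic genes, capitals mark the longest run of C and T that touched the 10 bases on either side of the start. In the mitochondrial genes, capitals mark CTTCCGG, a core recognised by transcription factors of the ETS family.
Rpl5 (chr14:1995211-1995240, minus strand): aCTCTCTTTCCCacgtcgcttgcgtcctgg
Rps2 (chr10:14251833-14251862, plus strand): CCTCTTCTTTTTCTTCgggaaaacacgtga
Rplp0 (chr12:46718376-46718405, minus strand): gaccgcaccgcaCTTCTCTCgccaggcgtc
Rpl10 (chrX:157205835-157205864, plus strand): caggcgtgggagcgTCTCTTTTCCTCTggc
Mrps18b (chr20:2842991-2843020, plus strand): tgcgcagtcgttCTTCCGGcaggccgtacg
Mrpl52 (chr15:31852921-31852950, plus strand): accggagccacgcccaCTTCCGGtttcttt
Mrpl48 (chr1:164351362-164351391, minus strand): tgatgaagacctttccggtcgcgttttcag
Mrps6 (chr11:44778652-44778681, plus strand): gaagattccatcaagatggcagccaagacc

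The run was 11 bases long in Rpl5, 8 in Rplp0 and 13 in Rpl10, and in Rps2 it reached 20 bases, part of which lies before the window shown. In Rpl5 the run ended before the annotated start. A promoter was found by symbol for 118 of the 151 symbols, 59 in each set. Mrps28 had none, so no window is shown for it. A run of at least 8 pyrimidines was present in 40 of the 59 cytosolic promoters (67.8%) and in 8 of the 59 mitochondrial ones (13.6%), against 12.9% of the promoters of 19005 protein-coding genes. The median longest run was 10 bases in the cytosolic set and 4 in both the mitochondrial set and all genes. CTTCCGG, searched on both strands in the promoters from 250 bases before to 50 after the start, was found in 32.2% of cytosolic, 33.9% of mitochondrial and 11.2% of all promoters. GCATGCGC, the core site of nuclear respiratory factor 1, was found in 5.08%, 8.47% and 3.23%. These matches are letters only, and nothing was measured at them.

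Of the 158 rows, 146 passed the filter on low counts and were tested, 75 cytosolic and 71 mitochondrial. The remaining 12 were not: Rpl3l, Rpl39l, Mrpl36, Mrpl53 and one of the Rpl21 rows had few counts, and Rps6, Rps29, Rpl38, Rpl39, Mrpl33, Mrps21l and another Rpl21 row were listed at 0 in all 6 libraries. Since Rps6, the substrate of S6 kinase, is a subunit of every cytosolic ribosome, a value of 0 there is no measure of its mRNA. Rplp1, Rps7, Rps9, Rps13, Rps26 and Mrpl30 were not analysed here. Ribosomal protein genes have many processed copies, so reads may be shared between rows: 12 member rows carried a symbol that another row also had, 5 member rows had counts identical to those of another row (both rows of Rpl7a, and Rpl8, Rpl35a and Rplp2), and values of such rows are uncertain. In bulk tissue, fewer cells of a type and less RNA per cell cannot be told apart.

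The summed transcripts of neither set separated the groups. The summed level of the cytosolic genes was 12030, 11079 and 13164 CPM (counts scaled to a common library size after TMM) in the controls and 12853, 14170 and 11103 CPM in the IDPN-4wk rats. The means were 12091 ± 1044 and 12709 ± 1538 CPM (SD, n = 3 per group), a ratio of 1.05. The IDPN-4wk libraries held the highest value of all and one close to the lowest control.

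The summed level of the mitochondrial genes was 2200, 2198 and 2321 CPM in the controls and 2320, 2441 and 2103 CPM in the IDPN-4wk rats. The means were 2240 ± 70.7 and 2288 ± 171 CPM, a ratio of 1.02, and the groups overlapped here too. The ratio of the cytosolic to the mitochondrial sum within a library, which does not depend on its scaling but is not corrected for gene length, was 5.47, 5.04 and 5.67 in the controls and 5.54, 5.80 and 5.28 in the IDPN-4wk rats. Its means were 5.39 ± 0.322 and 5.54 ± 0.262, a difference smaller than either SD.

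**Figure D1:**
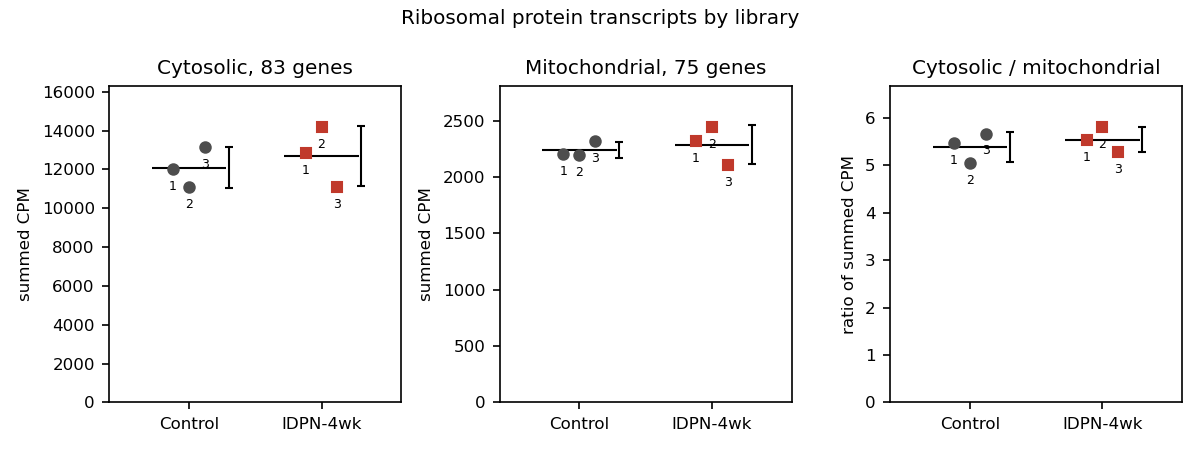
Summed CPM of the 83 cytosolic and 75 mitochondrial ribosomal protein genes, and their ratio, for each library (circles, control, and squares, IDPN-4wk, numbered by replicate), with the mean as a line and the SD as a bar (n = 3). The groups overlap in all 3 panels, with IDPN-4wk replicate 2 highest in each.

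Gene by gene, no cytosolic ribosomal protein was downregulated or upregulated at the thresholds of Padj under 0.05 and a fold change over 1.5, and a single mitochondrial one, Mrps6, was downregulated. Padj is the p of the edgeR quasi-likelihood test with Benjamini-Hochberg adjustment over all 14352 genes tested. That was 1 of 146 members, where 9.71% of all genes tested passed both thresholds and 6.62% did so with lower values in IDPN-4wk rats. With DESeq2, 0 cytosolic and 2 mitochondrial members passed both thresholds, Mrps6 and Mrps28, both lower.

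At Padj under 0.05 and any fold change, Rpl5 and Rps2 of the cytosolic set were higher. Of the mitochondrial set, Mrps18b was higher and Mrps6, Mrps28, Mrpl48 and Mrpl52 were lower. In all genes tested, 7.89% were higher and 11.5% lower by the same criterion, so that these 7 of 146 members (4.79%) were fewer than the background share. No cytosolic member was lower at an unadjusted p under 0.05 in edgeR, and none was lower at a Padj under 0.05 in DESeq2. At an unadjusted p under 0.05, 2 cytosolic members were higher, while 6 mitochondrial members were higher and 4 lower, where 2244 of the 14352 genes tested were higher and 2500 lower.

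The spread of the log2-Fold changes was narrow. Their median was 0.07 over the 75 cytosolic members, 64 of which had a value above 0, and 0.07 over the 71 mitochondrial members, 48 of which did, against 0.02 over all genes tested, 52.8% of which did. By subunit, the medians were 0.07 for cytosolic large, 0.08 for cytosolic small, 0.05 for mitochondrial large and 0.09 for mitochondrial small. The 95% interval of the log2-Fold change lay wholly within a 1.5-fold change in either direction for 64 cytosolic and 61 mitochondrial members, which is 85.3% and 85.9%, against 53.9% of all genes tested. The width of an interval depends on a gene's counts, and these shares were not matched for counts. The sign of the cytosolic median rested on 1 animal, since without IDPN-4wk replicate 2 it was -0.06, and the mitochondrial median was -0.0023. Scaling by library size alone raised the median of all genes to 0.13 and both member medians to 0.18.

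**Figure D2:**
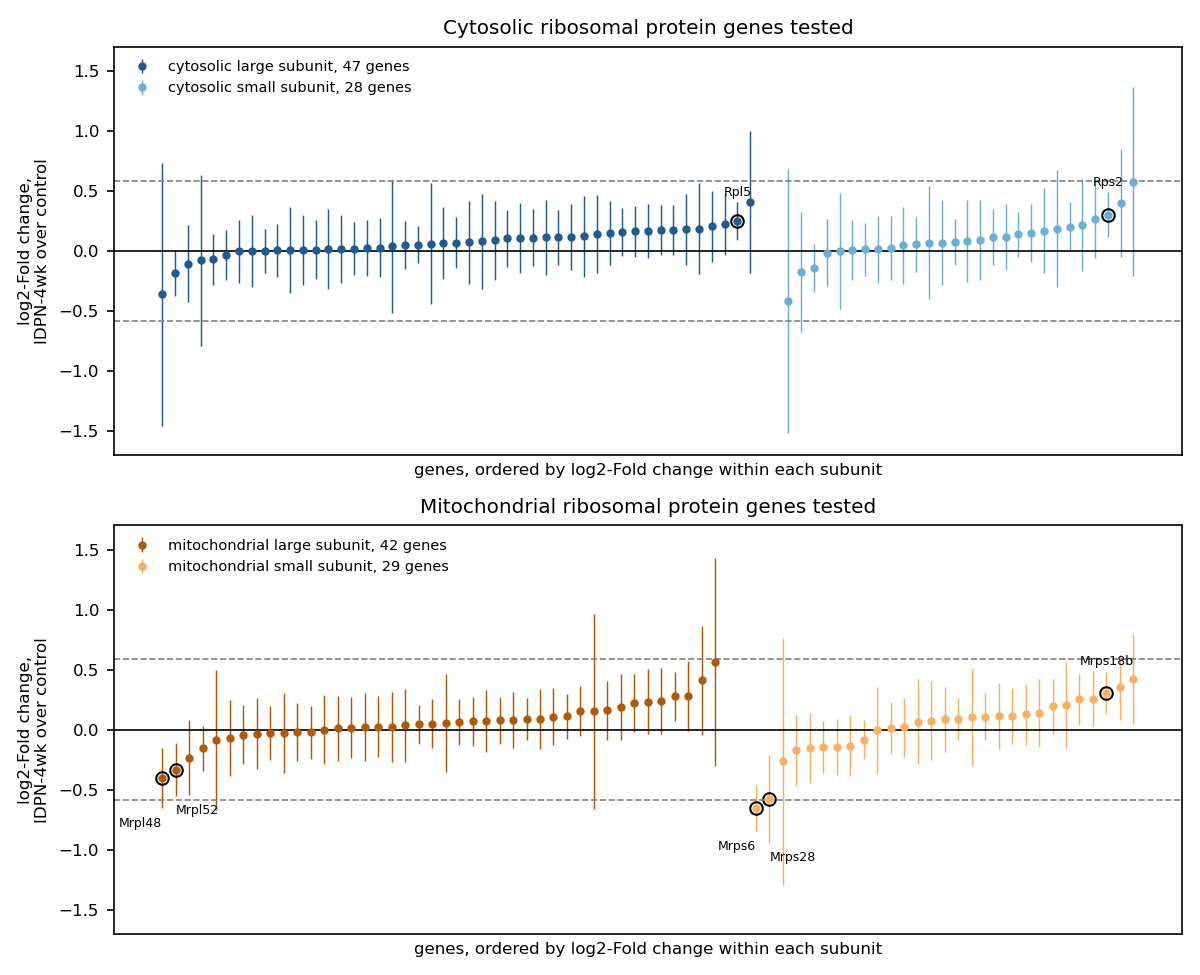
log2-Fold change (IDPN-4wk over control) of each tested cytosolic (upper panel) and mitochondrial (lower panel) ribosomal protein gene, ordered within each subunit, with 95% intervals from the edgeR fit. Dashed lines mark a 1.5-fold change, and the 7 named and circled genes had a Padj under 0.05.

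Mrps6, a small subunit protein of the mitochondrial ribosome with a bacterial counterpart, was measured at 75.7, 67.0 and 78.2 CPM in the controls and at 45.4, 49.3 and 45.8 CPM in the IDPN-4wk rats. All 3 IDPN-4wk libraries lay well under the lowest control. Its log2-Fold change was -0.65 (SE 0.0869, edgeR quasi-likelihood Padj = 5.4e-04). In the RefSeq annotation Mrps6 overlaps Slc5a3, the gene of a myo-inositol transporter, which was not analysed here. The part of reads from shared bases in its count was not tested. Padj stayed under 0.05 when any of the 6 libraries was left out. Scaling by library size alone gave -0.54 (edgeR Padj = 0.0018), short of a 1.5-fold change, and edgeR's glmTreat against a 1.5-fold change called 0 members.

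Mrps28, another mitochondrial small subunit protein, was measured at 26.2, 25.9 and 32.6 CPM in the controls and at 15.6, 23.8 and 17.2 CPM in the IDPN-4wk rats. The groups did not overlap, though IDPN-4wk replicate 2 lay close to the lower controls. Its log2-Fold change was -0.58 (SE 0.166, edgeR quasi-likelihood Padj = 0.034), just short of a 1.5-fold change. Leaving out IDPN-4wk replicate 2 gave -0.79 (edgeR Padj = 0.0075) and past both thresholds. Padj rose above 0.05 without any other single library, up to 0.13 without Control replicate 3, and was 0.063 with scaling by library size alone. Pseudogenes and a snoRNA overlap it in the RefSeq annotation.

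Mrpl48, a large subunit protein specific to mitochondrial ribosomes, was measured at 52.2, 44.4 and 45.3 CPM in the controls and at 41.5, 33.8 and 32.2 CPM in the IDPN-4wk rats. IDPN-4wk replicate 1 came near the controls and the groups did not overlap. The log2-Fold change of Mrpl48 was -0.40 (SE 0.115, edgeR quasi-likelihood Padj = 0.032). Without IDPN-4wk replicate 1 Padj was 0.017, and without any other single library it was above 0.05, up to 0.11 without Control replicate 1. Scaling by library size alone gave an edgeR Padj of 0.087. Rab6a, a GTPase of Golgi traffic, overlaps Mrpl48 in the RefSeq annotation.

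Mrpl52, also a mitochondria-specific large subunit protein, was measured at 32.8, 34.1 and 36.7 CPM in the controls and at 27.8, 28.3 and 26.1 CPM in the IDPN-4wk rats. The 2 groups were tight and apart. The log2-Fold change was -0.33 (SE 0.0987, edgeR quasi-likelihood Padj = 0.038). Leaving out any single library raised Padj above 0.05, up to 0.13 without Control replicate 3, as did scaling by library size alone (edgeR Padj = 0.13) and by upper quartile (edgeR Padj = 0.054).

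Mrps18b is one of a trio of related proteins, with Mrps18a and Mrps18c, that derive from a single bacterial ribosomal protein. It was measured at 51.9, 49.8 and 50.7 CPM in the controls and at 65.6, 64.4 and 58.6 CPM in the IDPN-4wk rats, with every treated animal above every control. Its log2-Fold change was 0.31 (SE 0.0805, edgeR quasi-likelihood Padj = 0.023). Padj was above 0.05 without Control replicate 2 or 3 or IDPN-4wk replicate 1 or 2, the highest being 0.093 without IDPN-4wk replicate 1. For its relatives, the log2-Fold change was -0.13 for Mrps18a and 0.07 for Mrps18c, with edgeR quasi-likelihood Padj of 0.46 and 0.81, and the difference between the 3 genes was not tested.

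Rpl5 forms with Rpl11 and a small ribosomal RNA the particle that is known to bind the p53 regulator Mdm2 when ribosome assembly is disturbed. It was measured at 228, 213 and 235 CPM in the controls and at 266, 282 and 259 CPM in the IDPN-4wk rats, without overlap. Its log2-Fold change was 0.25 (SE 0.0718, edgeR quasi-likelihood Padj = 0.032). Its partner Rpl11 was measured at 119, 106 and 136 CPM in the controls and at 122, 138 and 106 CPM in the IDPN-4wk rats, which overlapped throughout, with a log2-Fold change of 0.03 (edgeR quasi-likelihood Padj = 0.89). For Rpl5, Padj was 0.037 without IDPN-4wk replicate 3 and above 0.05 without any other library, up to 0.11 without IDPN-4wk replicate 2. Small nucleolar RNA genes lie within Rpl5 in the RefSeq annotation.

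Rps2, named here after its value was seen, is a small subunit protein near the path by which mRNA enters the ribosome. It was measured at 337, 327 and 340 CPM in the controls and at 413, 458 and 369 CPM in the IDPN-4wk rats. The controls were almost equal and all 3 IDPN-4wk libraries were above them, though far apart among themselves. A log2-Fold change of 0.30 resulted (SE 0.0845, edgeR quasi-likelihood Padj = 0.029). Without IDPN-4wk replicate 3 Padj was 0.0078, and without any other library it was above 0.05, up to 0.11 without IDPN-4wk replicate 2. It also hosts a snoRNA gene, Snora64.

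**Figure D3:**
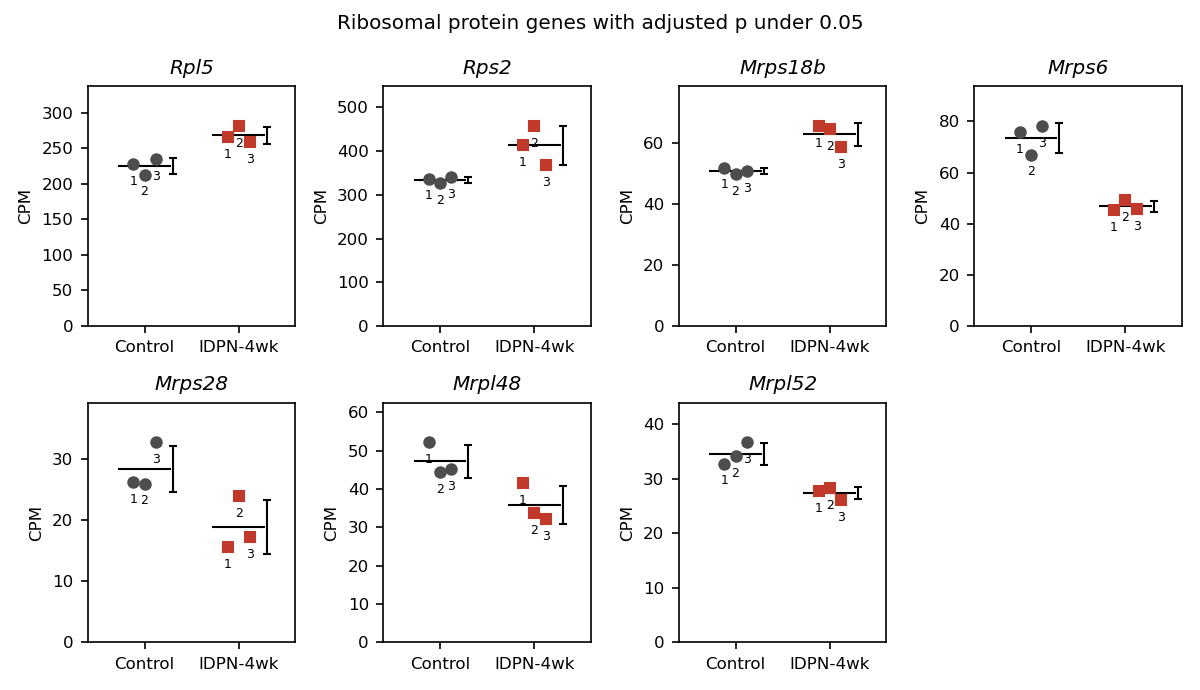
CPM in each library (circles, control, and squares, IDPN-4wk, numbered by replicate) of the 7 ribosomal protein genes with a Padj under 0.05, with the mean as a line and the SD as a bar (n = 3 per group, axes from 0). The groups do not overlap in any of the panels, Rpl5, Rps2 and Mrps18b being higher and the other 4 lower in IDPN-4wk rats.

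Every IDPN-4wk library was above every control for 2 cytosolic members, Rpl5 and Rps2, and for 7 mitochondrial ones, Mrps18b, Mrps22, Mrps12, Mrps2, Mrps5, Mrpl21 and Mrpl35, against 18.5% of all genes tested. Every IDPN-4wk library was below every control for 0 cytosolic members and for 6 mitochondrial ones, Mrps6, Mrps28, Mrpl48, Mrpl52, Mrpl3 and Mrps7, against 19.3% of all genes tested. Both counts were under the background share in either set. Groups that do not overlap without a Padj under 0.05 include Mrps12, a protein of the decoding centre, at 24.8, 26.3 and 24.8 CPM in the controls and 28.7, 31.0 and 27.0 CPM in the IDPN-4wk rats (log2-Fold change 0.19, edgeR quasi-likelihood Padj = 0.23). They also include Mrps22, a mitochondria-specific small subunit protein, at 19.8, 21.8 and 19.9 CPM in the controls and 30.1, 25.2 and 23.3 CPM in the IDPN-4wk rats (log2-Fold change 0.35, edgeR quasi-likelihood Padj = 0.073).

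Among other cytosolic members of the large subunit, Rplp0, the base of the stalk that recruits translation factors, had the highest CPM, a value not corrected for length. It was measured at 1003 ± 75.9 CPM in the controls and 1126 ± 154 CPM in the IDPN-4wk rats (n = 3 each, log2-Fold change 0.17, edgeR quasi-likelihood Padj = 0.29). Its stalk partner Rplp2 was at 11.7 ± 0.848 and 11.7 ± 1.91 CPM, with a log2-Fold change of 0.01, and its counts were identical to those of an unnamed locus. Rpl3, a protein near the catalytic centre, had a log2-Fold change of 0.05 with a 95% interval from -0.10 to 0.21. Its muscle paralog Rpl3l reached at most 1 count in a library.

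Rpl10, which joins the large subunit late in its assembly, had one of the lowest log2-Fold changes of the set at -0.18, with a 95% interval from -0.38 to 0.01 (edgeR quasi-likelihood Padj = 0.18). It was measured at 687, 593 and 736 CPM in the controls and at 623, 587 and 567 CPM in the IDPN-4wk rats, so that 1 control lay between the treated animals. The retrogene copy Rpl10l, known from the testis, stood at 2.18 ± 1.06 and 1.68 ± 0.959 CPM (n = 3 each), too few counts to resolve its log2-Fold change of -0.36, whose interval ran from -1.46 to 0.73. One of the 2 Rpl32 rows had the highest log2-Fold change of the large subunit, 0.41, and was carried by IDPN-4wk replicate 1 at 18.0 CPM, where the other 5 libraries lay between 7.64 and 9.99 CPM (edgeR quasi-likelihood Padj = 0.32). The other Rpl32 row had a log2-Fold change of 0.07. Rpl22, an RNA-binding large subunit protein, had a log2-Fold change of 0.14 (edgeR quasi-likelihood Padj = 0.55).

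In the cytosolic small subunit, Rps3a had the highest CPM averaged over all 6 libraries, though not in the IDPN-4wk rats alone, where Rps2 was higher. It stood at 396 ± 42.9 CPM in the controls and 404 ± 68.3 CPM in the IDPN-4wk rats (n = 3 each, log2-Fold change 0.03, edgeR quasi-likelihood Padj = 0.90). Rpsa, also known as the laminin receptor precursor, was at 247, 223 and 272 CPM in the controls and 303, 293 and 258 CPM in the IDPN-4wk rats. The lowest treated animal lay under the highest control, and its log2-Fold change was 0.20 (edgeR quasi-likelihood Padj = 0.15). Rps14 and Rps19, whose loss of a copy is known to impair red blood cell formation, had log2-Fold changes of 0.12 and -0.42. Rps19 was at only 2.54 ± 1.17 and 1.85 ± 1.19 CPM (n = 3 each), and its interval ran from -1.52 to 0.68.

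Rps27 and its p53-induced paralog Rps27l had log2-Fold changes of 0.09 and 0.07. Rps27a, made as a fusion with ubiquitin, had log2-Fold changes of 0.15 and 0.05 in its 2 rows, and X-linked Rps4x 0.06 and 0.01 in its 2 rows. The extremes of the small subunit were Rps21 at 0.58 and Rps15 at 0.40, with Rps25 at -0.17 and Rps19 as the lowest, and none had an edgeR quasi-likelihood Padj under 0.20. Rps21 was at 2.04 ± 0.577 and 3.04 ± 0.987 CPM (n = 3 each), so that its large log2-Fold change came with an interval from -0.21 to 1.36.

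In the mitochondrial large subunit, Mrpl17 had the highest mean CPM, at 73.8 ± 0.353 CPM in the controls and 78.4 ± 5.94 CPM in the IDPN-4wk rats (n = 3 each, log2-Fold change 0.09, edgeR quasi-likelihood Padj = 0.47). Mrpl12, a stalk protein that also binds the mitochondrial RNA polymerase, had a log2-Fold change of 0.11, and Mrpl44, a protein related to ribonuclease III, one of 0.15, with edgeR quasi-likelihood Padj of 0.53 and 0.28. The highest values were those of Mrpl43 at 0.57, at low counts, and Mrpl32 at 0.41, both with intervals that included 0. In the small subunit, Mrps7 had the highest CPM averaged over all 6 libraries, though not in the controls alone, where Mrps6 was higher. It stood at 69.7 ± 1.26 and 65.7 ± 2.69 CPM (n = 3 each, log2-Fold change -0.08, edgeR quasi-likelihood Padj = 0.46). Mrps31 had the highest log2-Fold change, 0.42, at 17.9, 15.9 and 21.2 CPM in the controls and 25.7, 29.1 and 18.9 CPM in the IDPN-4wk rats. IDPN-4wk replicate 3 lay among the controls (edgeR quasi-likelihood Padj = 0.11).

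The cytosolic members varied together from animal to animal more than between groups. Among the IDPN-4wk libraries, replicate 2 was highest and replicate 3 lowest for 65 of the 75 cytosolic members (86.7%), for 36 of the 71 mitochondrial members (50.7%) and for 19.9% of all genes tested. Among the controls, replicate 3 was highest and replicate 2 lowest for 61 cytosolic members (81.3%), 22 mitochondrial members (31.0%) and 15.5% of all genes. Both orders held together for 53 cytosolic members (70.7%), 9 mitochondrial members (12.7%) and 3.73% of all genes. The orders counted are those of the cytosolic sums of the same libraries, so a high share in the cytosolic members was favoured in advance. Members share their library, so these counts are a description of 6 animals.

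The size of these shifts was read as the log2 level of each gene in a library minus its mean over the 6 libraries. The median shift of the cytosolic members was -0.04, -0.16 and 0.11 in the controls and 0.06, 0.25 and -0.20 in the IDPN-4wk rats. For the mitochondrial members it was -0.04, -0.04 and 0.02 in the controls and 0.05, 0.13 and -0.09 in the IDPN-4wk rats. The mitochondrial members thus kept the order of the IDPN-4wk libraries at a smaller size. Over all genes tested, the medians lay within 0.02 of 0 in every library. The median SD of the log2 level within groups was 0.203 for cytosolic members, 0.140 for mitochondrial ones and 0.156 for all genes. The summed cytosolic CPM of IDPN-4wk replicate 2 was 1.28 times that of replicate 3, more than the 1.05 between the group means.

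**Figure D4:**
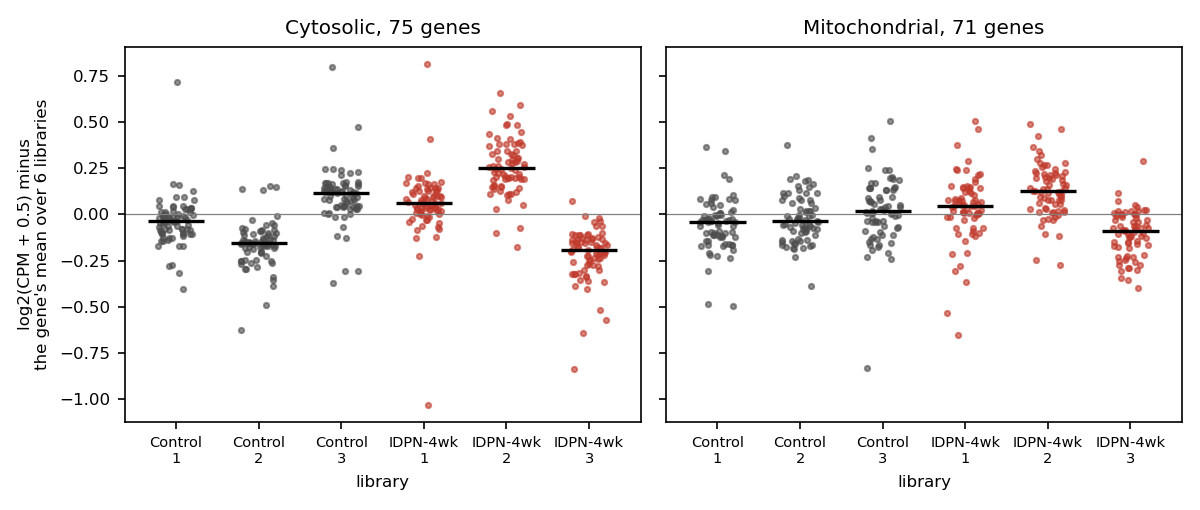
Each point is a tested ribosomal protein gene in a library, as log2(CPM + 0.5) minus its mean over the 6 libraries, for 75 cytosolic (left) and 71 mitochondrial (right) genes, with the median as a line. The cytosolic genes shift together, up in IDPN-4wk replicate 2 and Control replicate 3 and down in IDPN-4wk replicate 3 and Control replicate 2, and the mitochondrial genes shift less.

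The order of the libraries was seen in cytosolic members with and without the pyrimidine run. Replicate 2 was highest and replicate 3 lowest of the IDPN-4wk libraries for 35 of 40 cytosolic members with a pyrimidine run of at least 8 at the annotated start (87.5%) and for 16 of 19 without it (84.2%). Rpl10, with a run of 13, was among the exceptions, and had its highest IDPN-4wk value in replicate 1. In the other genes tested it held for 19% of 1291 with such a run and 19.2% of 8910 without it. The median log2-Fold change was 0.11 in cytosolic members with the run and 0.06 in those without.

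Depth did not follow the same order in both groups. Total counts were 16032133, 14995200 and 14610151 in the controls and 13358678, 18561991 and 15121461 in the IDPN-4wk rats, so that IDPN-4wk replicate 2 was the deepest library while Control replicate 3 was the least deep control. Some marker lists were highest or lowest in the same libraries. The summed CPM of 3 red blood cell genes was 95.4, 95.3 and 113 in the controls and 150, 221 and 110 in the IDPN-4wk rats, highest in the libraries with the highest cytosolic sum of each group. That of 10 macrophage markers was 155, 173 and 123 in the controls and 161, 85.4 and 116 in the IDPN-4wk rats, lowest in those libraries. That of 15 HC markers was 3807, 3944 and 3795 in the controls and 2397, 2436 and 2837 in the IDPN-4wk rats, highest in Control replicate 2 and IDPN-4wk replicate 3, which had the lowest cytosolic sum of their groups. The 10 supporting cell markers were highest in the same libraries, at 11541, 12983 and 11955 in the controls and 7615, 6879 and 8220 in the IDPN-4wk rats. The 9 glia and neuron markers summed to 9700, 7537 and 8927 in the controls and 7278, 5043 and 7763 in the IDPN-4wk rats. They were lowest in replicate 2 of both groups, the one with the lowest and the other with the highest cytosolic sum. The part of these cell types in the order of the libraries was not tested. No marker of any of the 7 cell type lists was at 0 in all libraries.

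Between groups, the lists of the sensory epithelium changed while the ribosomal protein sums did not separate. Of 15 HC markers, 13 were lower and 0 higher at an edgeR quasi-likelihood Padj under 0.05 (0 higher also at an unadjusted p under 0.05 and in DESeq2), with a median log2-Fold change of -0.89, where 11.5% of all genes tested were lower and 7.89% higher. Their sums, given above, did not overlap between the groups. Of 10 supporting cell markers, 6 were lower and 0 higher in edgeR (1 higher at an unadjusted p under 0.05, and 1 in DESeq2), and their sums did not overlap either. Of the glia and neuron markers 6 were lower and 1 higher, of 10 macrophage markers 1 was lower and 1 higher, of 7 stroma and endothelium markers 1 was lower and 2 higher, of 7 dark cell and melanocyte markers 2 were lower, and of the red blood cell genes 1 was higher (0 in DESeq2). The 2 of 10 macrophage markers (20.0%) stood against 19.4% of all genes tested that passed in either direction, so this count is not read as a result about its list. The 2 of 7 dark cell and melanocyte markers (28.6%) stood against 11.5% of all genes tested that were lower, a small count. For these markers DESeq2 gave 3 lower and 0 higher, and the median log2-Fold change was -0.60, with 1 above 0. Their summed CPM did not overlap, at 1548, 1990 and 1720 in the controls and 1224, 1316 and 1179 in the IDPN-4wk rats. The part of such changes in the values of the ribosomal protein genes was not tested.

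Ribosome biogenesis genes, whose products process ribosomal RNA and assemble subunits, were mostly on the higher side. Of 44 ribosome biogenesis genes tested, 39 had a log2-Fold change above 0 (88.6%, against 52.8% of all genes tested), the median was 0.22, and 12 were higher and 0 lower at an edgeR quasi-likelihood Padj under 0.05 (0 lower also at an unadjusted p under 0.05 and in DESeq2, which gave 14 higher). The 12 were 27.3% of the list, where 7.89% of all genes tested were higher. The summed CPM of this list was 2060, 2030 and 2110 in the controls and 2446, 2529 and 2254 in the IDPN-4wk rats. The groups did not overlap, and replicates 2 and 3 of the IDPN-4wk rats were again highest and lowest. The list was not compared with the ribosomal protein genes by a test.

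Utp4, a factor in the processing of the small subunit's ribosomal RNA, was the only one past both thresholds. It was measured at 41.8, 41.6 and 39.9 CPM in the controls and at 70.5, 57.2 and 59.7 CPM in the IDPN-4wk rats, far above them, with a log2-Fold change of 0.60 (SE 0.096, edgeR quasi-likelihood Padj = 0.0017). Without IDPN-4wk replicate 1 this was 0.50 and without Control replicate 3 it was 0.58, both short of a 1.5-fold change, which ended the call past both thresholds. The other 11 that rose, named after their values were seen, were Npm1 and Nop56 and Nop58 of the nucleolus, the nucleolar GTPase Gnl3, and Nop14, Wdr43, Rrp9, Rrp12, Ppan, Noc2l and Noc4l, all processing or assembly factors, with log2-Fold changes from 0.32 for Nop56 to 0.56 for Gnl3. Padj stayed under 0.05 without any single library for Utp4, Nop58, Nop14, Wdr43, Rrp9 and Noc2l, and rose above it for Npm1 only without IDPN-4wk replicate 1 (0.054, edgeR). It rose above 0.05 without more than 1 library for Nop56, Gnl3, Rrp12, Ppan and Noc4l, up to 0.12 for Nop56 without Control replicate 3. Npm1, a nucleolar chaperone that binds ribosomal proteins, was measured at 160, 152 and 170 CPM in the controls and at 216, 203 and 194 CPM in the IDPN-4wk rats.

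Of 35 cytosolic translation factors tested, 30 had a log2-Fold change above 0, with a median of 0.12. At an edgeR quasi-likelihood Padj under 0.05, 4 were higher and 1 lower (5 of 35, or 14.3%, against 19.4% of all genes tested), and DESeq2 gave 3 higher and 1 lower. In neither did any pass both thresholds. The paralogs of the initiation helicase, named after their values were seen, went opposite ways. Eif4a1 was measured at 199, 192 and 189 CPM in the controls and at 290, 287 and 257 CPM in the IDPN-4wk rats (log2-Fold change 0.52, edgeR quasi-likelihood Padj = 7.7e-04). Eif4a2 was at 425, 408 and 432 CPM in the controls and at 368, 354 and 342 CPM in the IDPN-4wk rats (log2-Fold change -0.25, edgeR quasi-likelihood Padj = 0.026). The groups did not overlap for either gene. Eif4a1 had a Padj under 0.05 in all 13 alternatives tried and Eif4a2 in 9 of them, its log2-Fold change being -0.14 (edgeR Padj = 0.16) with scaling by library size alone and its Padj reaching 0.10 without Control replicate 3, and also exceeding 0.05 without Control replicate 1 or IDPN-4wk replicate 2. The other 3 past this threshold were the initiation factors Eif2s1 and Eif3d and the termination factor Etf1, with log2-Fold changes of 0.28, 0.28 and 0.34. They passed it in 4, 9 and 8 of the 13 alternatives, and Eif2s1 did not pass it in DESeq2. Leaving out IDPN-4wk replicate 3 was the only omission of a single library that kept all 3 calls.

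Of 16 genes known to control ribosomal protein mRNA, 3 were lower and 0 higher at an edgeR quasi-likelihood Padj under 0.05, and DESeq2 gave the same counts, while 3 were higher at an unadjusted p under 0.05. These 3 of 16 (18.8%) were close to the share of all genes tested (19.4%). Mycn, a transcription factor of the Myc family, passed both thresholds. It was at 2.65, 3.21 and 2.19 CPM in the controls and at 1.01, 0.928 and 1.42 CPM in the IDPN-4wk rats, all lower, with a log2-Fold change of -1.26 (SE 0.349, edgeR quasi-likelihood Padj = 0.028). Its counts were few, and Padj rose above 0.05 without Control replicate 1 or 2 or IDPN-4wk replicate 1 or 2, up to 0.11 without Control replicate 2. Myc itself, named after its values were seen, was at 4.00, 5.24 and 3.33 CPM in the controls and at 7.55, 7.12 and 5.09 CPM in the IDPN-4wk rats, where replicate 3 lay within the range of the controls (log2-Fold change 0.65, edgeR quasi-likelihood Padj = 0.095). Rptor, the scaffold of mTOR complex 1, and Deptor, an inhibitor of mTOR, both named after their values were seen, fell by 0.38 and 0.52 on the log2 scale (edgeR quasi-likelihood Padj of 0.0053 and 0.045). Rptor passed in all 13 alternatives and Deptor in 6, its Padj reaching 0.16 without Control replicate 1 and remaining above 0.05 without any other single library but Control replicate 2.

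Further subunit genes of the mitochondrial ribosome carry other symbols, and 1 of 6 tested (16.7%, under the 19.4% of all genes tested) passed a Padj of 0.05 in edgeR. Dap3, a GTP-binding protein of the small subunit, was higher, at 35.3, 35.9 and 36.0 CPM in the controls and 46.8, 50.1 and 41.3 CPM in the IDPN-4wk rats. Its groups were apart (log2-Fold change 0.37, edgeR quasi-likelihood Padj = 0.022). Leaving out any library but IDPN-4wk replicate 3 raised Padj above 0.05, up to 0.083 without IDPN-4wk replicate 2.

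Of 34 genes of mitochondrial translation and mitoribosome assembly, 2 were higher and 1 lower at an edgeR quasi-likelihood Padj under 0.05, with a median log2-Fold change of 0.09. These 3 of 34 (8.82%) were under the 19.4% of all genes tested. Those named after their values were seen are the elongation factor Tufm and the assembly factor Mettl17, with log2-Fold changes of 0.24 and 0.54, and Lrpprc, which stabilises mitochondrial mRNA. Tufm passed the threshold in only 4 of 13 alternatives, in none that left out a library (Padj up to 0.16 without Control replicate 3) and not in DESeq2, which called Mettl17 and Rpusd4 higher. Mettl17 lost it without Control replicate 1 (edgeR Padj = 0.061) or IDPN-4wk replicate 2 (edgeR Padj = 0.055). Lrpprc was at 139, 132 and 121 CPM in the controls and at 104, 104 and 103 CPM in the IDPN-4wk rats, all lower (log2-Fold change -0.33, edgeR quasi-likelihood Padj = 0.0099). Of 13 nuclear genes of mitochondrial DNA maintenance and transcription, 0 had an edgeR quasi-likelihood Padj under 0.05, 0 in DESeq2, and 2 were higher at an unadjusted p under 0.05, against 19.4% of all genes tested at the former threshold and 2244 of 14352 higher at the latter. Their median log2-Fold change was 0.14.

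**Figure D5:**
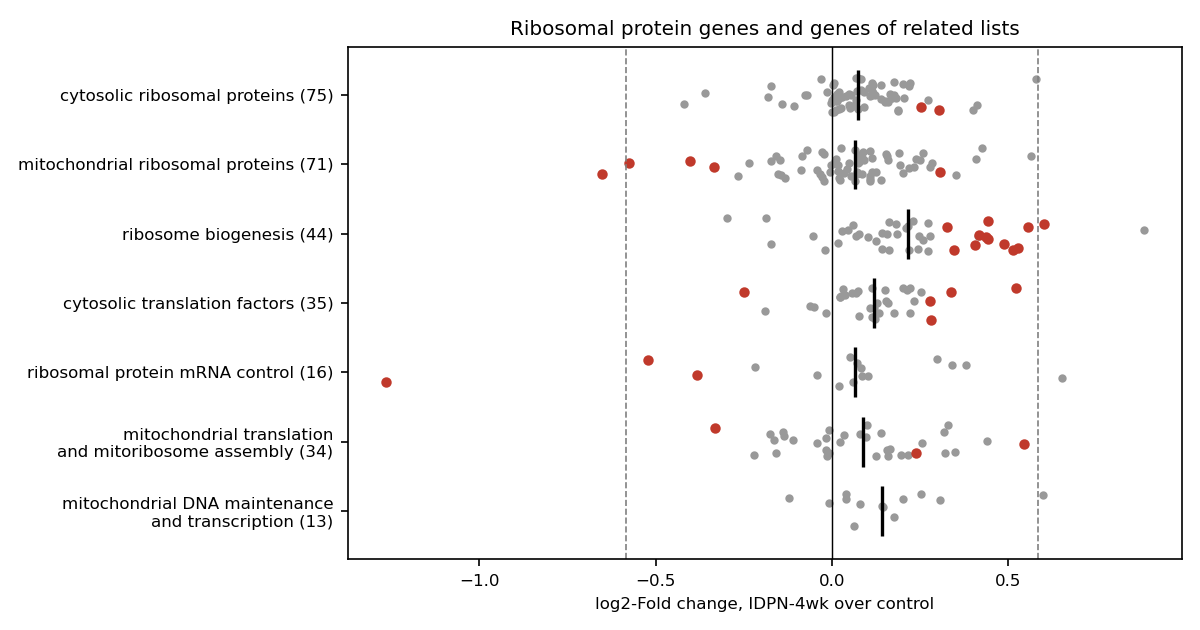
log2-Fold change (IDPN-4wk over control) of each tested gene of the ribosomal protein sets and of 5 related lists, with the number of genes in brackets, the median as a line and dashed lines at a 1.5-fold change. Genes with an edgeR Padj under 0.05 are red: 2 of 75 cytosolic and 5 of 71 mitochondrial ribosomal protein genes, and 12 of 44 ribosome biogenesis genes, all of the latter higher.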

How the data were processed

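RNA-seq libraries of 3 control and 3 IDPN-4wk rats were analysed. The authors made SMART-seq2 libraries from total RNA (oligo-dT priming, no strand kept), mapped reads to Rnor6.0 (annotation Rnor6.0.92 in their methods) and deposited expected counts per gene. The submitters' processing notes name STAR 2.5.3a and RSEM 1.3.0. RSEM divides reads that match several genes, so rows of gene copies are uncertain. The counts were whole as deposited, and rounding changed 0 values. PCR reads carried no molecular identifiers.

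Total counts ranged from 13358678 to 18561991 per library. Genes were filtered with filterByExpr (minimum count 10, total 15), scaled with TMM and compared by glmQLFTest of edgeR 4.0.16 (quasi-likelihood, R 4.3.3), treatment being the only term. The fit covered the whole table, and was tested on simulated data. SEs come from the F statistic. DESeq2 1.42.0 was an alternative, beside other scalings, no filter, glmTreat, summed copies and leaving out each animal. Promoters and overlapping genes are from RefSeq (GRCr8), matched by symbol. The labels used here name no batch. Part of the animal code in the sample titles was the same in all IDPN-4wk rats and differed from that of the controls. What it stands for is not given, and it cannot be told apart from treatment.

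Members and lists were chosen with earlier results of these data known. Named in each subunit set were the members past both thresholds (at most 6), the 2 highest and 2 lowest log2-Fold changes averaging at least 1 CPM and the highest mean CPM, with a preset list of members of known role, and in other lists up to 4 genes past both thresholds. A list of further cytosolic subunit genes is not reported here.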

Additional observations from a re-analysis of the deposited data

How the results depend on the processing

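Each library came from a different rat, so the comparison was unpaired. The labels give no replicate numbers, and those used here follow the order of the libraries in the deposited counts. The number of ribosomal protein genes past both thresholds (1) was 2 with the DESeq2 Wald test and 0 with both glmTreat against a 1.5-fold change and scaling by library size alone, and was from 1 to 2 when an animal was left out (2 without IDPN-4wk replicate 2). The number with a Padj under 0.05 (7, 4 of them lower) was from 1 to 11 when an animal was left out, 1 without Control replicate 2 or 3 and 11 without IDPN-4wk replicate 3, and was 10 with scaling by library size alone, 1 of them lower. That scaling also raised the mitochondrial median log2-Fold change to 0.18 and the mitochondrial fold of summed CPM between group means to 1.10. The TMM factors differed between groups, which that scaling leaves out, and the cause of the other changes was not tested. Leaving out an animal gave cytosolic medians from -0.06 to 0.19, mitochondrial medians from -0.0023 to 0.10, cytosolic folds of summed CPM from 0.989 to 1.11, mitochondrial folds from 0.986 to 1.05 and folds of the ratio of both sums from 0.995 to 1.05. Of the 817 fits of 63 named genes under an alternative, 794 stayed on the same side of both thresholds, and 0 reversed with a Padj under 0.05 in either fit, while 14 genes changed sign without one.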
